A study of Mus musculus with 18 samples.

Results

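Hepcidin and the genes that handle iron were followed in the livers of mice fed a control or a high fat diet, with or without the phosphatase subunit SAPS3 in hepatocytes. The 10 genes were chosen by symbol, out of 25266 genes listed for each mouse: the hepcidin genes Hamp and Hamp2, the surface proteins Tfrc, Tfr2 and Hfe, the iron carrier Trf, the ferritin subunit Fth1, the iron exporter Slc40a1, the ligand Bmp6 and the SMAD inhibitor Smad7. All 10 were listed in every mouse, and all passed the filter of a mean of at least 0.5 RPKM (reads scaled to the length of the gene and the depth of the library), which left 11090 genes to test.

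RNA of whole liver was sequenced from 18 mice. FF mice carry Ppp6r3, the gene of SAPS3, with loxP sites on both copies and have no Cre, and LKO mice carry the same floxed copies together with Cre under the albumin promoter, which acts in hepatocytes and leaves the other liver cells with the gene. The mice were C57BL/6 males, and from 8 weeks of age they ate for 16 weeks either the control diet (CD, 10 kcal% fat) or the high fat diet (HFD, 32.5 kcal% fat). The groups were FF CD (n = 4), LKO CD (n = 4), FF HFD (n = 5) and LKO HFD (n = 5), and each library was labelled as a mouse of its own, with no litter or sequencing batch given.

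The depth, worked out from the spacing of low RPKM values, was 23.4 to 37.0 M reads per mouse. Ppp6r3 was at 9.34 ± 1.14 RPKM in FF CD and 3.99 ± 0.0822 in LKO CD mice, and at 8.23 ± 0.467 in FF HFD and 4.60 ± 0.271 in LKO HFD mice (SD), with no overlap between genotypes under either diet. Summed markers of hepatocytes (6 genes) lay between 33898 and 51320 RPKM in all mice, so the tissue carried the RNA its label names. Summed markers of sinusoidal endothelial cells (7 genes) were at 19.2 to 42.8 RPKM in FF CD and 49.1 to 80.0 in FF HFD mice, and those of Kupffer cells (7 genes) at 44.4 to 63.5 and 53.2 to 103. By the rule given below, 4 of the 7 endothelial and 3 of the 7 Kupffer markers were called higher under HFD in FF mice. Called higher too were 2 of 6 stellate markers, while 2 of 6 hepatocyte markers were called lower. Of all genes tested, 5.11% were called higher and 1.49% lower in this comparison. In LKO mice 1 of the 7 Kupffer markers (Clec4f) was called higher under HFD, beside 0.965% of all genes tested. The part of these cell types in the results that follow was not tested.

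Hepcidin is a small peptide hormone that hepatocytes release into blood. It binds ferroportin, the protein of Slc40a1, and has it destroyed, so that gut cells and macrophages hand less iron to the plasma. Hepatocytes make more hepcidin when iron-loaded transferrin engages Tfr2 and Hfe and when sinusoidal endothelial cells supply Bmp6 to the BMP receptors, whose signal runs through SMAD proteins, and also through STAT3 in inflammation. Mice carry a pair of hepcidin genes, Hamp and Hamp2, where humans carry a single one.

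Hamp (ENSMUSG00000050440.8, chr7:30942368-30944032) and Hamp2 (ENSMUSG00000056978.8, chr7:30922372-30924681) lay on the minus strand of GRCm38, the assembly known as mm10, with 17686 bp between them. Their coding sequences have 252 bases each and were 93.65% identical, with a longest shared run of 80 bases. The stretch just before the stop codon, which encodes the circulating peptide in 25 codons, is shown because it is where the genes part most. It lies in the last of 3 exons, at chr7:30942480-30942554 for Hamp and chr7:30922511-30922585 for Hamp2, and capitals mark the 14 bases, in 9 codons, at which they differ.
Hamp: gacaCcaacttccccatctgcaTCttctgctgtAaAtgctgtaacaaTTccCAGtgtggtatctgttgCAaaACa
Hamp2: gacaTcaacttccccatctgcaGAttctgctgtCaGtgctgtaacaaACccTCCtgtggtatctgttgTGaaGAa

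The 250 bases before each start site were also compared, since the hepcidin genes moved differently. The sequences are those of RefSeq on GRCm38.p6, on the minus strand, at chr7:30944030-30944279 for Hamp and chr7:30924182-30924431 for Hamp2, and they were 89.72% identical. Capitals mark matches, on either strand, to GGCGCC (the core of the BMP-responsive element of hepcidin genes), TTCNNNGAA (a motif of STAT factors) and GATAAG (a motif of GATA factors, here read from the other strand).
Hamp promoter: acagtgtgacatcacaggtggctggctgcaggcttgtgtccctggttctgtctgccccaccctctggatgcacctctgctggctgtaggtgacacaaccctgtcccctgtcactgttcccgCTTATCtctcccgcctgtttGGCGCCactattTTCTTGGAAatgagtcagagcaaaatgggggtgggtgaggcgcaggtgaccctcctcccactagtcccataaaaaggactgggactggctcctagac
Hamp2 promoter: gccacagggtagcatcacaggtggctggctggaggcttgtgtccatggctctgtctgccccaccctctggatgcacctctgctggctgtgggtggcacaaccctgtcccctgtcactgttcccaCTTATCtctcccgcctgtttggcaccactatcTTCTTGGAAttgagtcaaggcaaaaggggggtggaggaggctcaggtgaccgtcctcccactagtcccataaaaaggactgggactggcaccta
GGCGCC stood 109 to 104 bases upstream in Hamp and had 0 matches in the window of Hamp2. TTCNNNGAA and GATAAG stood in both, at 97 to 89 and 129 to 124 bases upstream in Hamp and 94 to 86 and 126 to 121 bases in Hamp2, and no match overlapped another. Of 32851 promoter windows of this length, 9.59% hold GGCGCC, 7.02% TTCNNNGAA and 6.55% GATAAG. Any link of these motifs to the levels of the hepcidin genes was not tested.

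Levels of the 10 genes spanned from Trf, with a mean of 5038 RPKM over the 18 mice, to Bmp6, with 0.951. Trf ranked 6 among all genes listed, Hamp 55 with a mean of 782 RPKM, and Fth1 60 with 701. The ranges of Hamp (189 to 1495 RPKM) and Fth1 (451 to 997) overlapped, as did those of Tfr2 (35.9 to 68.0), Slc40a1 (22.2 to 45.9) and Hamp2 (2.56 to 68.3). Hfe (7.10 to 13.05) stood above Tfrc (1.80 to 3.85), whose range overlapped that of Smad7 (1.32 to 3.01).

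The first comparison asked what the high fat diet did to these genes in mice that keep SAPS3. Hamp fell and Fth1 rose, while Hamp2 and the other 7 genes were not called. A gene was called at a fold change above 1.5 on the log2(RPKM + 1) scale with an adjusted p under 0.05, from limma with Benjamini-Hochberg adjustment over all 11090 genes. By this rule 2 of the 10 genes were called beside 6.6% of all genes tested, 1 of them higher (5.11% of all genes) and 1 lower (1.49%). Their median log2 difference was 0.12, against 0.07 over all genes tested.

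Hamp was at 769, 559, 1194 and 1334 RPKM in the 4 FF CD mice and at 244, 433, 189, 275 and 565 RPKM in the 5 FF HFD mice. The lowest control mouse and the highest HFD mouse overlapped by a narrow margin. The means were 964 ± 362 and 341 ± 155 RPKM (SD), a ratio of 2.82. On the log2 scale Hamp fell by 1.53 under HFD (standard error 0.35, adjusted p = 0.00479 by limma), and no single mouse moved the difference out of the range from -1.76 to -1.34. In bulk liver RNA, fewer hepcidin-making cells and less hepcidin RNA per cell cannot be told apart.

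Hamp2 was at 19.98, 8.54, 13.3 and 17.4 RPKM in FF CD mice and at 11.3, 68.3, 23.7, 42.7 and 25.2 RPKM in FF HFD mice. All but 1 of the HFD mice were above every control mouse. The log2 difference of 0.98 (standard error 0.47) missed the threshold at an adjusted p of 0.146 by limma. Without FF HFD mouse 1, the exception, it was 1.31 with an adjusted p of 0.0453. That was the 1 of 25 alternatives past the threshold. Over all 25, the difference ran from 0.68 to 1.31, with adjusted p from 0.0453 to 0.333 by limma.

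The diets were then compared in mice without SAPS3 in hepatocytes. In LKO mice Hamp2 fell under HFD, Hamp was not called, and no other gene of the 10 was called. So 1 of 10 was called beside 1.27% of all genes tested, and 0.307% of all genes tested were called lower like Hamp2. The median log2 difference of the 10 genes was -0.09, against 0.07 over all genes tested.

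Hamp2 was at 37.1, 13.6, 44.8 and 61.2 RPKM in LKO CD mice and at 8.92, 7.38, 2.56, 3.38 and 2.66 RPKM in LKO HFD mice. Every HFD mouse was below every control mouse. The means were 39.2 ± 19.8 and 4.98 ± 2.96 RPKM (SD), a ratio of 7.87, and on the log2 scale Hamp2 fell by 2.71 (standard error 0.47, adjusted p = 0.0108 by limma). Groups without overlap were seen in 9.04% of all genes tested.

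Hamp was at 1178, 904, 1495 and 1128 RPKM in LKO CD mice and at 910, 1022, 563, 348 and 957 RPKM in LKO HFD mice. The groups overlapped in 3 of the 5 HFD mice, which lay above the lowest control mouse. The log2 difference was -0.71 (standard error 0.35), with an unadjusted p of 0.0544 and an adjusted p of 0.233 by limma. An interval of 2 standard errors on either side, used for all log2 differences here, was -1.41 to -0.02.

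**Figure D1:**
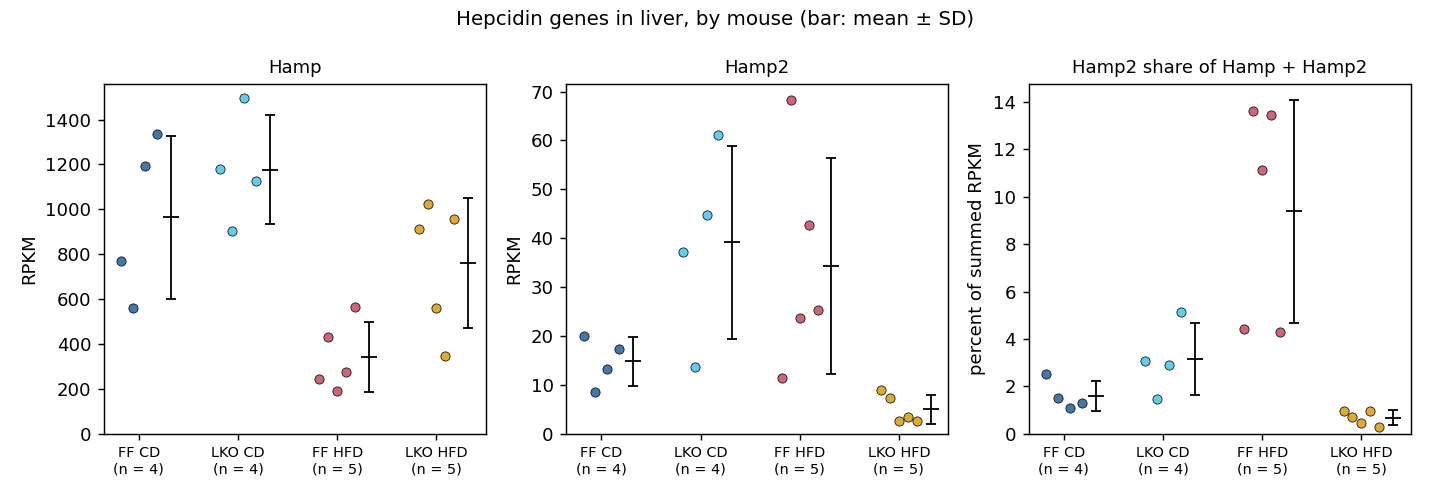
RPKM of Hamp and of Hamp2 and the percent of their summed RPKM that Hamp2 makes up, with a point for each mouse and mean ± SD beside each of the 4 groups. Hamp lies lowest in the FF HFD mice (189 to 565 RPKM), whereas Hamp2 lies lowest in the LKO HFD mice (2.56 to 8.92 RPKM).

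Genotypes were then compared within each diet. Under CD, 0 of the 10 genes were called by limma, beside 0.225% of all genes tested, and 2 of them had an unadjusted p under 0.05. These were Hamp2, with a log2 difference of 1.23 (LKO minus FF, standard error 0.49, adjusted p = 0.501), and Fth1, with 0.42 (standard error 0.12, adjusted p = 0.188). Hamp differed by 0.35 (adjusted p = 0.913), with an interval of -0.38 to 1.08.

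Under HFD, Hamp2 was lower in LKO than in FF mice and was the 1 gene of the 10 called. Of all genes tested, 2.07% were called in this comparison, and 1.17% were called lower. The means of Hamp2 were 4.98 ± 2.96 against 34.3 ± 22.1 RPKM (SD, n = 5 each), with no overlap, which 4.67% of all genes tested also showed. The log2 difference was -2.46 (standard error 0.44, adjusted p = 0.00402 by limma). In the same comparison 2 of 6 stellate cell markers (Col1a1 and Col3a1) were called lower. Of 6 hepatocyte markers, 1 (Apoa1) was called higher, beside 0.902% of all genes tested. The summed stellate markers were at 52.1 to 103 RPKM in LKO HFD and 74.0 to 115 in FF HFD mice. The part of these cell types in this difference was not tested.

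Hamp lay on the other side of the comparison, at 760 ± 291 RPKM in LKO HFD and 341 ± 155 in FF HFD mice (SD). The log2 difference of 1.16 (standard error 0.33) came with an adjusted p of 0.0525 by limma and was not called. The groups overlapped through LKO HFD mouse 4 (348 RPKM) and FF HFD mouse 5 (565 RPKM), with LKO HFD mouse 3 at 563. It passed the threshold without LKO HFD mouse 4 (1.41, adjusted p = 0.0199), without FF HFD mouse 5 (1.37, adjusted p = 0.0314), without FF CD mouse 2 (1.16, adjusted p = 0.0478) and with quantile normalization (1.18, adjusted p = 0.0377). These were 4 of 25 alternatives. Over all 25, the difference ran from 0.98 to 1.41, with adjusted p from 0.0199 to 0.123 by limma.

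By group means, Hamp ran from LKO CD through FF CD and LKO HFD down to FF HFD, and each group overlapped its neighbour in that order. Hamp2 ran from LKO CD (13.6 to 61.2 RPKM) and FF HFD (11.3 to 68.3) through FF CD (8.54 to 19.98) to LKO HFD. All its neighbours overlapped, the last pair through FF CD mouse 2 (8.54 RPKM) and LKO HFD mouse 1 (8.92 RPKM).

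Whether the diet acted differently in the genotypes was tested as an interaction, the diet difference in LKO minus that in FF mice. Hamp2 and Fth1 were called, 2 of the 10 genes beside 2.44% of all genes tested, both with a negative value as were 1.5% of all genes. For Hamp2 the interaction was -3.69 (standard error 0.66, adjusted p = 0.00427 by limma), and it stayed past the threshold with each mouse left out. For Hamp it was 0.81 (standard error 0.49, adjusted p = 0.435), so the drop of Hamp called in FF mice was not shown to differ from that in LKO mice. Col1a1 and Col3a1 were also called in the interaction, with negative values like Hamp2 and Fth1, and the summed stellate markers were at 58.9 to 85.1 RPKM in FF CD and 58.9 to 102 in LKO CD mice. Their part was not tested. The 5 comparisons share groups and are not independent of one another.

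**Figure D2:**
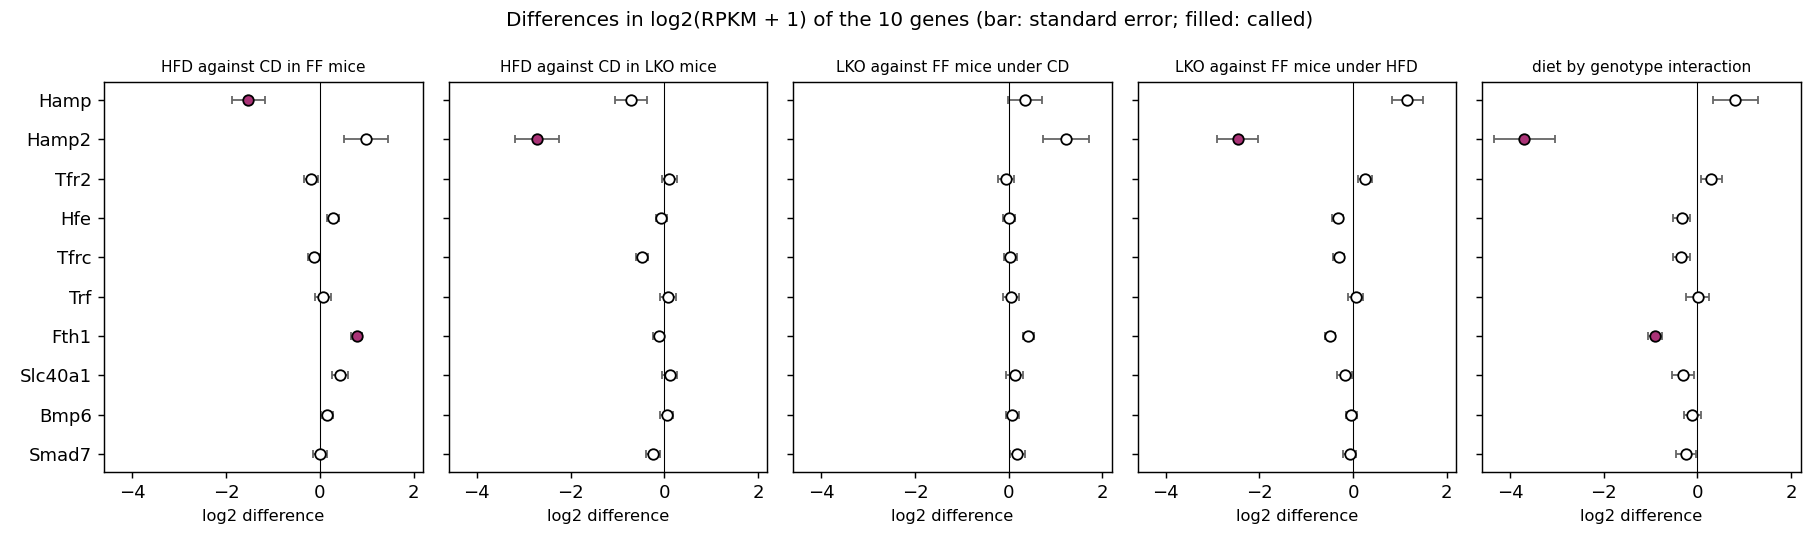
Differences in log2(RPKM + 1) of the 10 genes in the 5 comparisons, as the first group minus the second, with standard errors from limma and filled points for called genes. Hamp2 stands at -3.69 in the interaction and Fth1 at -0.90, while Smad7 runs from -0.25 to 0.18.

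Because Hamp and Hamp2 share long identical stretches, reads may have been assigned to the wrong gene, and how the authors treated such reads is not given in the sources used here. The share of Hamp2 in the summed RPKM of both genes was therefore taken. It was 1.10 to 2.53% in FF CD, 1.49 to 5.14% in LKO CD, 4.27 to 13.6% in FF HFD and 0.277 to 0.970% in LKO HFD mice. Neither diet comparison overlapped, nor did the genotypes under HFD.

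The mean share was 9.38% ± 4.70 in FF HFD against 1.61% ± 0.639 in FF CD mice (SD, n = 5 and 4), with an adjusted p of 0.0317 by an exact two-sided permutation test over 4 comparisons. It was 0.675% ± 0.307 in LKO HFD against 3.15% ± 1.51 in LKO CD mice (n = 5 and 4), with an adjusted p of 0.0159 by the same exact test. LKO and FF mice under HFD differed by -8.71 percentage points (adjusted p = 0.0159, exact permutation test), and under CD by 1.54 points (adjusted p = 0.0857, exact permutation test).

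Set against the Hamp RPKM of the same mouse, Hamp2 ranged from 0.278% in LKO HFD mouse 5 to 15.8% in FF HFD mouse 2. The part of misassigned reads in these values was not tested. The summed RPKM of both genes, at 979 ± 364 in FF CD, 1215 ± 254 in LKO CD, 376 ± 163 in FF HFD and 765 ± 293 in LKO HFD mice (SD), passed the threshold in 0 of the 4 comparisons. Its adjusted p was 0.0794 for the diet in FF mice and for the genotypes under HFD by exact permutation, with unadjusted values of 0.0238 and 0.0397 by exact permutation.

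Ferritin and the transport genes came next. Fth1 encodes the heavy chain of ferritin, the shell in which cells store iron. It was at 538, 602, 451 and 505 RPKM in FF CD mice and at 926, 997, 980, 784 and 822 RPKM in FF HFD mice. Every HFD mouse exceeded every control mouse, which held for 18.3% of all genes tested in this comparison in either direction.

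Fth1 rose by 0.78 on the log2 scale (standard error 0.11, adjusted p = 0.000135 by limma), from 524 ± 63.1 to 902 ± 95.03 RPKM (SD). In LKO mice it was at 592, 778, 660 and 776 RPKM under CD and at 654, 640, 584, 662 and 668 RPKM under HFD, and the log2 difference was -0.12 (adjusted p = 0.555). The difference between the genotypes in this response was -0.90 (standard error 0.16, adjusted p = 0.00368 by limma), and it stayed past the threshold with each mouse left out.

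Under HFD all LKO mice were below all FF mice in Fth1, and 4.67% of all genes tested had no overlap here in either direction. The log2 difference of Fth1 was -0.49 (standard error 0.11, adjusted p = 0.0143 by limma). The fold of 1.40 was under the limit of 1.5, so Fth1 was not called there. By the adjusted p alone, 4.2% of all genes tested passed in this comparison, and leaving out a mouse moved the adjusted p of Fth1 to as much as 0.0507. Ftl1, the gene of the light chain of ferritin and the most abundant of its list, had a log2 difference of 0.64 under HFD in FF mice (adjusted p = 0.0569) and -0.26 in LKO mice (adjusted p = 0.530), and was not called.

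Slc40a1 was at 34.1, 26.9, 28.8 and 26.6 RPKM in FF CD mice and at 40.1, 43.3, 32.5, 38.5 and 42.9 RPKM in FF HFD mice. The groups overlapped in 1 mouse each, and the log2 difference of 0.43 (standard error 0.17) had an adjusted p of 0.0806 by limma, or 0.0173 with rescaling, where it was 0.51 and under the fold limit. In LKO mice it was at 32.4 ± 7.10 RPKM under CD and 35.4 ± 8.53 under HFD (SD). Kupffer cells, which export iron from old red cells through ferroportin, had summed markers with a higher mean under HFD in both genotypes, in LKO mice at 37.7 to 60.3 RPKM under CD and 51.5 to 102 under HFD. Their part in the Slc40a1 and Fth1 levels was not tested.

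Tfrc encodes transferrin receptor 1, by which cells take up iron-loaded transferrin. It was at 3.54, 3.23, 3.68 and 3.30 RPKM in LKO CD mice and at 1.80, 2.38, 2.75, 1.99 and 2.16 RPKM in LKO HFD mice, from 230 to 619 whole reads per mouse over the 18 mice. The groups did not overlap, as in 9.04% of all genes tested, and the ratio of means was 1.55. On the log2(RPKM + 1) scale, which understates the change of a gene this low, the difference was -0.47 (standard error 0.13, adjusted p = 0.0449 by limma), under the fold limit, so Tfrc was not called. By the adjusted p alone, 4.05% of all genes tested passed in this comparison. The adjusted p of Tfrc was 0.0563 to 0.13 without any 1 of the 9 LKO mice, 0.0504 to 0.0534 without FF CD mouse 1 or 3 or FF HFD mouse 1, 2 or 5, 0.0524 with only the groups compared and 0.0901 with no filter.

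With a pseudocount of 0.1 in place of 1, Tfrc was called in LKO mice (-0.62, adjusted p = 0.0442). In FF mice it was at 3.39 ± 0.824 RPKM under CD and 2.99 ± 0.518 under HFD (SD), with a log2 difference of -0.13 (adjusted p = 0.519). The genotypes were not shown to differ in this response, with an interaction of -0.34 (standard error 0.18, adjusted p = 0.354).

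**Figure D3:**
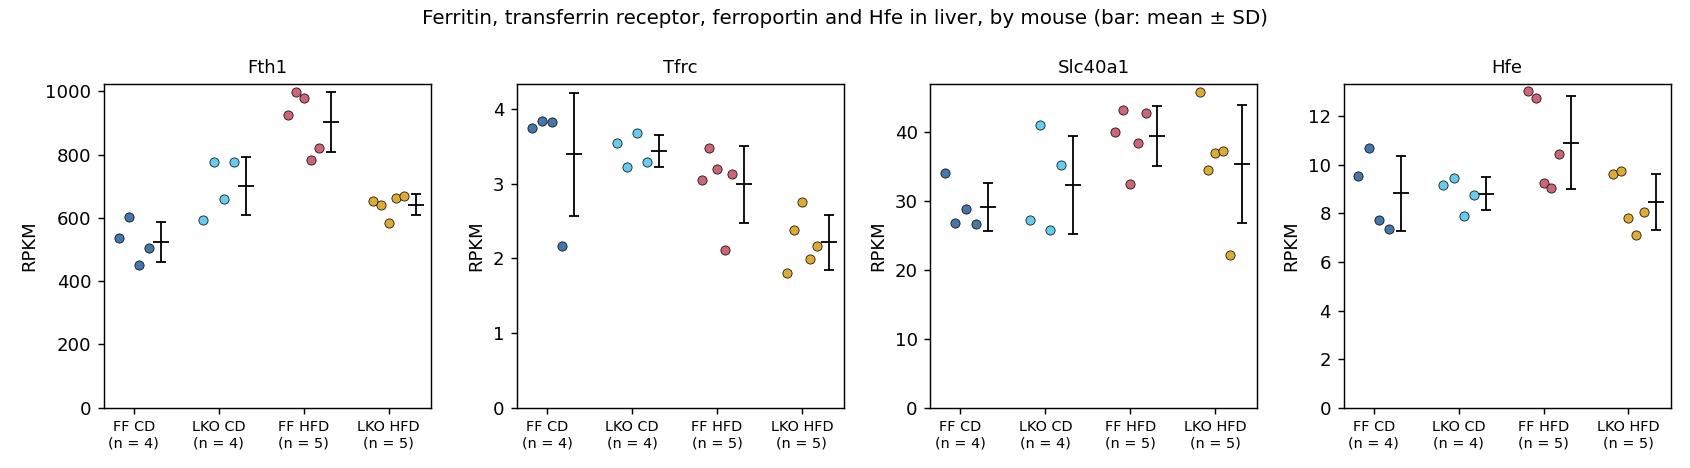
RPKM of Fth1, Tfrc, Slc40a1 and Hfe in each mouse, with mean ± SD beside each of the 4 groups. The FF HFD mice (784 to 997 RPKM) lie above the other groups in Fth1, and the LKO HFD mice (1.80 to 2.75 RPKM) lie below the LKO CD mice in Tfrc.

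Messenger RNAs of Fth1, Slc40a1 and Tfrc carry iron-responsive elements, hairpins to which iron regulatory proteins bind when iron is scarce. Binding near the start of the Fth1 and Slc40a1 messages blocks their translation. Binding in the tail of the Tfrc message keeps it from decay, so that the level of that message is higher when cell iron is scarce. The elements are shown since they separate the genes by where the control acts. They were found in GENCODE transcripts of GRCm38 as a C, a stem of 5 bases that pair across the loop, and the loop CAGTGN in capitals, with its last base other than G.
Fth1 5′ UTR, chr19:9982733-9982759, plus strand: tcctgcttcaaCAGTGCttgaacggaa
Slc40a1 5′ UTR, chr1:45925466-45925492, minus strand: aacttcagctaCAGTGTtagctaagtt
Tfrc 3′ UTR, chr16:32631220-32631246, plus strand: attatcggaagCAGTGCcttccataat
Tfrc 3′ UTR, chr16:32631599-32631625, plus strand: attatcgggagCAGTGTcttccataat
Tfrc 3′ UTR, chr16:32631664-32631690, plus strand: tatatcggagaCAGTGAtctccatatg
Tfrc 3′ UTR, chr16:32631711-32631737, plus strand: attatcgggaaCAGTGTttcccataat
For the genes shown, the search gave 1 element each in Fth1 and Slc40a1 and 4 in Tfrc. It did not cover all of the 10 genes, so these counts are not a full list for them. The RNA of Aco1, the most abundant of the 3 genes listed for iron regulatory proteins, differed by 0.09 between diets in FF mice (adjusted p = 0.556) and by -0.02 in LKO mice (adjusted p = 0.922).

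Trf encodes transferrin, the iron carrier of plasma, and Tfr2 and Hfe encode the proteins with which hepatocytes read its iron load. None of these 3 genes was called in any of the 5 comparisons. Trf was at 4921 ± 1394 RPKM in FF CD, 4960 ± 619 in LKO CD, 5037 ± 711 in FF HFD and 5195 ± 354 in LKO HFD mice (SD). The interval of 2 standard errors on either side of its diet difference was -0.27 to 0.41 in FF and in LKO mice, on the log2 scale. With quantile normalization the difference in FF mice was 0.51 (adjusted p = 0.0138 by limma), outside this interval but still under the fold limit.

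Tfr2 was at 56.5 ± 10.4 RPKM in FF CD and 49.7 ± 10.3 in FF HFD mice, and at 54.0 ± 6.72 in LKO CD and 58.5 ± 8.28 in LKO HFD mice (SD). Its log2 difference between the genotypes under HFD was 0.25 (standard error 0.15, adjusted p = 0.378 by limma). Hfe, the gene mutated in the commonest hereditary iron overload of humans, was at 8.83 ± 1.56 RPKM in FF CD, 10.9 ± 1.90 in FF HFD, 8.82 ± 0.676 in LKO CD and 8.47 ± 1.16 in LKO HFD mice (SD). It was 0.33 lower in LKO than in FF mice under HFD (standard error 0.12, adjusted p = 0.132 by limma), with overlap. The adjusted p was 0.0233 with rescaling and 0.0386 with quantile normalization, both under the fold limit.

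FF CD mouse 4 had the lowest RPKM of its group in Trf (3094), Tfr2 (43.3), Hfe (7.35), Tfrc (2.16) and Slc40a1 (26.6) and the highest in Hamp (1334) and Bmp6 (1.11). Without it, the diet difference of Hamp in FF mice remained called by limma, and that of Trf changed from 0.07 to -0.14 on the log2 scale, neither past the threshold.

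Bmp6 and Smad7 stand on the BMP route to hepcidin, Bmp6 as its main ligand in liver and Smad7 as a target that damps the signal. Bmp6 was at 0.946, 0.440, 0.813 and 1.11 RPKM in FF CD mice and at 0.930, 1.27, 0.890, 1.14 and 0.913 RPKM in FF HFD mice. The groups overlapped, and its log2 difference was 0.16 (standard error 0.13, interval -0.10 to 0.42, adjusted p = 0.405 by limma). The lowest value rests on 33 reads, with a 95% Poisson interval of 22.7 to 46.3 that covers counting error only.

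Bmp6 is made in sinusoidal endothelial cells, whose summed markers lay higher under HFD in FF mice, as given above, and were at 14.7 to 41.2 RPKM in LKO CD and 38.3 to 54.2 in LKO HFD mice. Its level in LKO mice was 0.925 ± 0.295 RPKM under CD and 0.995 ± 0.333 under HFD (SD), a log2 difference of 0.05 (adjusted p = 0.857). The part of endothelial RNA in these values was not tested.

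Smad7 was at 1.99 ± 0.325 RPKM in FF CD and 2.02 ± 0.594 in FF HFD mice, and at 2.40 ± 0.421 in LKO CD and 1.89 ± 0.605 in LKO HFD mice (SD), from 143 to 377 reads per mouse. Its diet difference was 0.0022 in FF mice (interval -0.29 to 0.30) and -0.25 in LKO mice (standard error 0.15, adjusted p = 0.341 by limma).

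**Figure D4:**
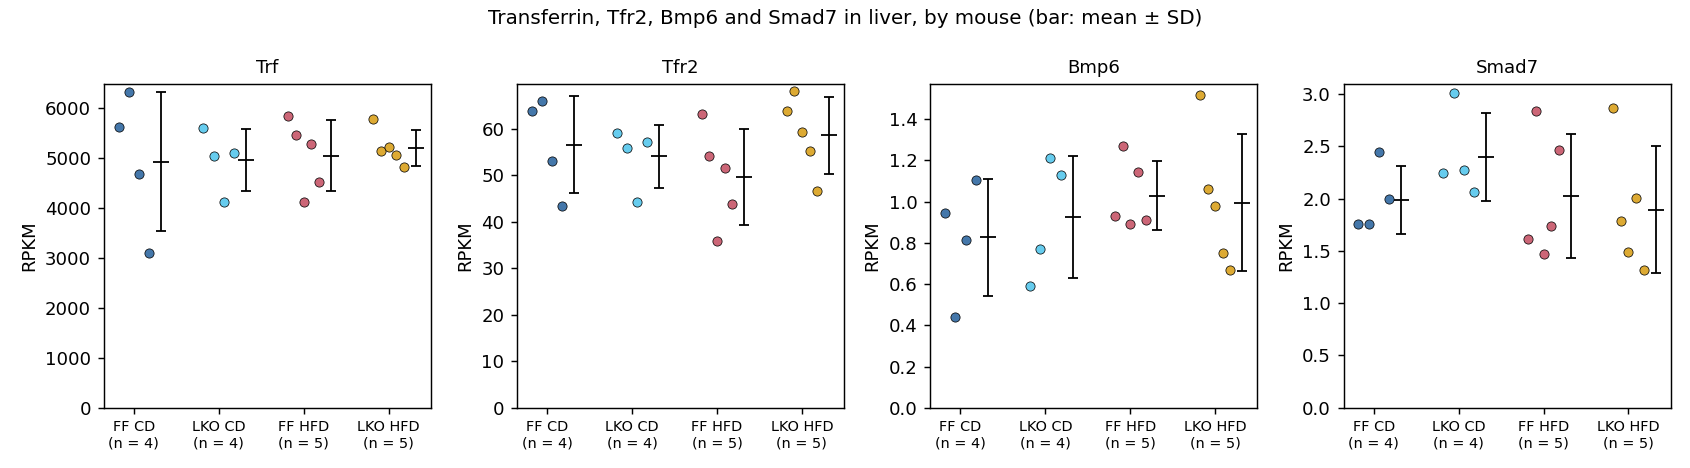
RPKM of Trf, Tfr2, Bmp6 and Smad7 in each mouse, with mean ± SD beside each of the 4 groups. The groups overlap in all 4 genes. In Bmp6, for example, they share the span from 0.890 RPKM (lowest FF HFD mouse) to 1.11 RPKM (highest FF CD mouse).

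Across mice, Hamp was set against Hamp2 and against 3 genes of the BMP route, Bmp6, Smad7 and the target gene Id1, after each group's mean had been removed. Pearson's r over the 18 mice was 0.46 with Hamp2 (Spearman's rho 0.51), 0.45 with Bmp6 (rho 0.45), 0.38 with Smad7 (rho 0.38) and 0.49 with Id1 (rho 0.51). The permutation p of r, two-sided within groups, was 0.0751, 0.0812, 0.19 and 0.0528, and 0.108, 0.108, 0.19 and 0.108 after adjustment over the 4 relations. For rho the permutation p was 0.0515, 0.0732, 0.177 and 0.0462, or 0.0976, 0.0976, 0.177 and 0.0976 adjusted.

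All 4 relations were positive and 0 passed the threshold after adjustment. Without the 2 mice farthest from the median of the other gene, r was 0.40 with Hamp2, 0.33 with Bmp6, 0.27 with Smad7 and 0.64 with Id1. Without LKO CD mouse 3 alone, r with Id1 was 0.70 with an adjusted permutation p of 0.0378. RNA of all the genes of a mouse comes from the same library, so that its cell makeup and depth are shared by both axes.

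**Figure D5:**
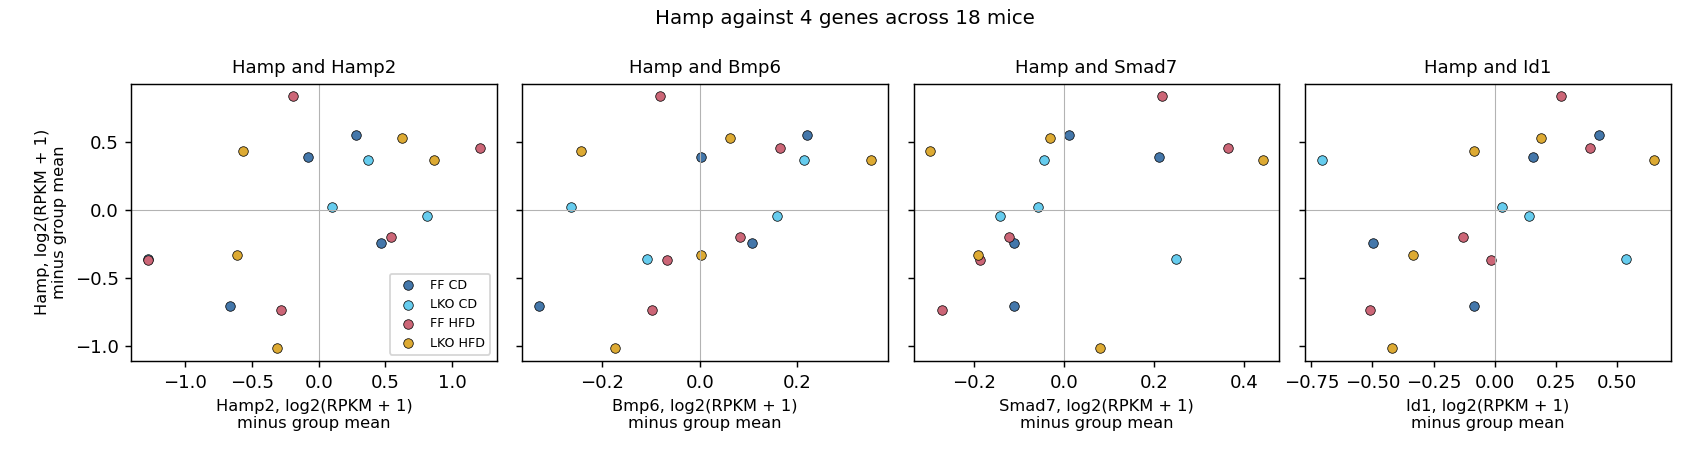
Hamp (vertical axis) against Hamp2, Bmp6, Smad7 and Id1 (horizontal axes) in the 18 mice, each as log2(RPKM + 1) minus the mean of the mouse's group, coloured by group. The r values are 0.46, 0.45, 0.38 and 0.49, and a single LKO CD mouse lies far to the left in the Id1 panel.

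The genes whose log2 levels followed Hamp most closely over the 18 mice, out of 11089, were Rps25 (r = 0.85), Zranb1 (r = 0.84) and Rpl27a (r = 0.83). Those of Hamp2 were Ubr3 (r = 0.83), Caln1 (r = 0.79) and Pls3 (r = 0.79). Group differences are included in these values, which are a description.

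Of 72 other genes of iron metabolism, 66 passed the filter. They were chosen with earlier results of these data known, so their shares beside those of all genes are a description. Under HFD in FF mice, 5 were called higher and 0 lower, which is 7.58% of them beside 5.11% of all genes tested that were called higher. These were Hjv, Il1b, Gdf15, Hmox1 and Cpox.

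Hjv encodes hemojuvelin, the BMP co-receptor that hepatocytes need for hepcidin production, and it rose from 27.4 ± 4.23 to 42.2 ± 2.98 RPKM (SD, n = 4 and 5) in the comparison in which Hamp fell. Its log2 difference was 0.62 (standard error 0.14, adjusted p = 0.00539 by limma), without overlap, as in 18.3% of all genes tested. It was the 1 gene called of 12 listed for BMP receptors, co-receptors and SMADs, and 0 of the 5 BMP-SMAD target genes tested were called, with Id2 the most abundant of them at 84.8 ± 16.3 RPKM in FF CD and 87.3 ± 11.4 in FF HFD mice. The call of Hjv was lost with quantile normalization and without FF CD mouse 3, where its fold fell under the limit.

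Il1b, an inflammatory cytokine, rose from 0.532 ± 0.147 to 2.09 ± 0.989 RPKM (adjusted p = 0.00882 by limma), and Gdf15, a stress cytokine named as an erythroid signal to hepcidin, from 0.269 ± 0.166 to 1.78 ± 0.775 RPKM (adjusted p = 0.00805). Hmox1, the enzyme that frees iron from haem, rose from 5.17 ± 1.68 to 10.5 ± 3.67 RPKM (adjusted p = 0.00413). Cpox, a step of haem synthesis, rose from 35.2 ± 6.75 to 59.4 ± 5.94 RPKM (adjusted p = 0.000473). These 4 calls held in all 25 alternatives. The summed Kupffer markers had a higher mean in the same mice, and their part was not tested.

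In LKO mice, 5 of the 66 were called higher under HFD and 0 lower, or 7.58% beside 0.965% of all genes tested that were called higher: Stat3, Slc39a14, Steap4, Hmox1 and Lrp1. Stat3, which carries the inflammatory signal to the hepcidin promoter, rose from 13.4 ± 1.11 to 29.4 ± 11.04 RPKM (SD, adjusted p = 0.0266 by limma). Slc39a14, an importer of iron not bound to transferrin, rose from 26.8 ± 1.32 to 45.4 ± 13.6 RPKM (adjusted p = 0.0449), and Steap4, a metal reductase, from 32.9 ± 2.74 to 95.04 ± 55.8 RPKM (adjusted p = 0.0260).

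The LKO HFD mice varied widely in these genes, with Steap4 between 36.2 and 180 RPKM. Hmox1 rose from 4.92 ± 0.785 to 8.92 ± 1.39 RPKM (adjusted p = 0.0411 by limma), and Lrp1, the receptor that clears haem bound to hemopexin, from 21.1 ± 1.70 to 35.3 ± 9.54 RPKM (adjusted p = 0.0499). The calls held in 19 of 25 alternatives for Steap4, 18 for Stat3, 11 for Hmox1 and 8 each for Slc39a14 and Lrp1, and leaving out any 1 of LKO CD mouse 1, LKO CD mouse 3, LKO CD mouse 4 or LKO HFD mouse 3 ended all 5, with adjusted p between 0.0551 and 0.144. Without LKO HFD mouse 4, 1 call was left, and without LKO CD mouse 2 or FF HFD mouse 2, 2 calls. Without any other single mouse 3 to 5 were left. With no filter 0 of the 5 calls were left, and with only the groups compared 1.

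Under CD the genotypes differed in 0 of the 66 genes by limma, and under HFD in 1, or 1.52% beside 0.902% of all genes tested that were called higher. That gene was Steap4, higher in LKO mice (1.05, standard error 0.28, adjusted p = 0.0402), a call that held in 12 of 25 alternatives and was lost without any 1 of the 5 FF HFD mice, of LKO HFD mice 3, 4 and 5 or of LKO CD mice 1 and 4 (adjusted p 0.05 to 0.113). No interaction was called by limma among the 66. Saa1, the acute-phase gene with the highest level of the inflammatory list, ranged from 13.3 to 973 RPKM within FF CD and from 37.2 to 1434 RPKM within LKO HFD mice and was not called.

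Several signals to hepcidin were at or near 0. Epo was listed at 0 in all 18 mice, Il6 reached at most 0.0695 RPKM and was at 0 in 13 mice, and Erfe reached at most 0.0247 RPKM. Among the abundant genes of the remaining lists, Tmprss6, a protease that cleaves hemojuvelin, was at 76.2 ± 15.6 RPKM in FF CD and 79.2 ± 17.2 in FF HFD mice. Hpx, Alas1 and Glrx5 had log2 differences of 0.16, 0.66 and 0.21 under HFD in FF mice, with adjusted p values of 0.701, 0.197 and 0.407 by limma.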

How the data were processed

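RNA of the livers of 18 mice was sequenced and, per the labels, aligned to mm10 with HISAT2 2.0.4 and quantified with Partek. The authors deposited RPKM values, 1 column per mouse and 25266 genes each. The annotation, the counting of multi-mapped reads and the use of strand are not given in the sources used here. The labels name a small RNA library kit and also a standard protocol, so the kit is unclear. Groups were taken from the titles.

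Depth was recovered from the spacing of low RPKM values of 2436 single-exon genes (9 to 23 agreeing estimates per mouse). Whole reads followed for 4 of the 10 genes. Intervals from reads cover counting error only. No sample was left out.

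The test was limma 3.58.1 (R 4.3.3; moderated variance with trend) on log2(RPKM + 1) over the 11090 genes with a mean of at least 0.5 RPKM, with all 4 groups in a single fit, two-sided, and Benjamini-Hochberg adjustment over all genes. A fold change on this scale understates that of low genes. Intervals of log2 differences span 2 standard errors on either side. The Hamp2 share and the summed hepcidin RPKM were tested by exact permutation over all splits of the mice (numpy 2.4.6). Relations across mice were tested by 100000 permutations within groups (20000 with a mouse left out). The limma p-values weigh a group difference against the spread between these mice, with the variance moderated as above. Permutation p-values compare a value with those of reshuffled mice. No 2 libraries of a group were identical. The limma step was tested on simulated data.

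Alternatives were a pseudocount of 0.1, no filter or a mean of at least 1 RPKM, rescaling to the same sum, quantile normalization, a fit of only the groups compared, a replicate block, the adjusted p alone, and each mouse left out. The 10 genes, the 72 other iron genes and the marker lists were chosen with earlier results of these data known. Beyond the 10, genes named were those called of each list, the most abundant of each list, and the 3 most like Hamp or Hamp2. Il6, Erfe and Epo were named after their values were seen. Positions and transcripts came from GENCODE M21. Protein sequences were not used here.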

Additional observations from a re-analysis of the deposited data

Results flagged for a closer look

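Tfrc in FF CD mouse 4 stood apart from its group, at 2.16 RPKM where the nearest of the other 3 mice was at 3.75. It was the 1 such value among 40 sets of 4 or 5 mice (10 genes in 4 groups), and chance alone gives about 1 in 20. Without this mouse the diet difference of Tfrc in FF mice was -0.28 on the log2 scale (adjusted p = 0.0798 by limma) in place of -0.13.

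The response of Hamp2 to the diet differed between the genotypes, with an interaction of -3.69 on the log2 scale, from a higher mean under HFD in FF mice and a lower one in LKO mice. The interaction of Fth1 was -0.90, from a rise in FF mice and a log2 difference of -0.12 in LKO mice.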

How the results depend on the processing

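Calls of Hamp and Fth1 (diet in FF mice), Hamp2 (diet in LKO mice, genotype under HFD, interaction) and Fth1 (interaction) kept their direction and side of the threshold in every alternative run. Of the 10 genes, 2 were called for the diet in LKO mice with a pseudocount of 0.1 or by the adjusted p alone, and 2 for the genotype under HFD with quantile normalization or by the adjusted p alone. With a mouse left out, 1 to 2 were called for the genotype under HFD, and r of Hamp with Id1 ran from 0.41 to 0.70.

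Among values not called, the direction turned with a pseudocount of 0.1 for Smad7 (diet in FF, -0.0060), with quantile normalization for Smad7 (diet in FF, -0.12), Bmp6 (diet in LKO, -0.057), Hfe (genotype under CD, -0.037) and Trf (genotype under HFD, -0.16, and interaction, -0.24), and with rescaling for Trf (-0.0035 and -0.071).

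Mice left out in turn gave both signs, in uncalled values, for the diet in FF mice of Trf (-0.14 to 0.21) and Smad7 (-0.089 to 0.073) and in LKO mice of Trf (-0.014 to 0.13) and Bmp6 (-0.039 to 0.12). The same held for the genotype under CD of Tfr2 (-0.17 to 0.039), Hfe (-0.064 to 0.097), Tfrc (-0.12 to 0.089), Trf (-0.15 to 0.19) and Bmp6 (-0.032 to 0.17), under HFD of Trf (-0.017 to 0.11), Bmp6 (-0.12 to 0.025) and Smad7 (-0.18 to 0.026), and for the interaction of Trf (-0.13 to 0.21). The cause was not tested in any of these.

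Replicate numbers did not pair the mice: of 17 pairs of same-numbered mice, 7 had correlated deviations over 0.1 (r from -0.11 to 0.27) and 4 mice correlated best with their own number. With a replicate block, 2, 1, 0, 1 and 2 of the 10 genes were called in the 5 comparisons, as without it, and over all genes 789, 166, 26, 223 and 294 in place of 732, 141, 25, 230 and 271. Over all genes, the diet in FF mice had 567 higher and 165 lower calls, 748 and 143 with rescaling, and 423 and 224 with quantile normalization. The background counts over all genes moved by over 1.5 times in these cases. For the diet in LKO mice, 141 became 40 with only its groups in the fit, 47 with no filter, 87 with quantile normalization and 272 with a pseudocount of 0.1, and dropping 1 mouse gave 17 (LKO CD 3), 20 (LKO HFD 3), 30 (LKO CD 1), 81 (LKO CD 4) or 237 (LKO HFD 1). For the diet in FF mice, 732 became 1254 with a pseudocount of 0.1. For the genotype under CD, 25 became 12 with no filter, and dropping 1 mouse gave 11 (FF CD 2), 13 (LKO CD 2), 14 (LKO CD 4), 15 (FF CD 3) or 45 (LKO CD 3). For the genotype under HFD, 230 became 152 with no filter, and dropping 1 mouse gave 132 (FF HFD 2) or 144 (LKO HFD 3). For the interaction, 271 became 169 with no filter and 411 with rescaling, and dropping 1 mouse gave 156 (FF CD 3), 157 (LKO CD 2), 162 (LKO CD 4) or 177 (FF HFD 2).

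The lowest read counts behind the 10 genes were those of Hamp2, at about 28 to 97 reads per LKO HFD mouse, and of Bmp6, at 33 to 113 reads per mouse.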
